A study of Mus musculus with 4 samples.

Results

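A set of 10 genes of the heat shock protein families that work in the cytosol and in mitochondria were followed in Py8119 cells with and without overexpression of Mtss1. They are Hspa8, Dnajb1, Hspa4, Hsph1, Hsp90aa1, Hsp90ab1, Hspb1, Hspa9, Hspd1 and Hspe1, chosen by symbol from the deposited expression table, where they are 10 of 50600 genes. The Py8119 line was derived from a mammary tumour of a C57BL/6 mouse, is described in the labels as mesenchymal-like, and was grown in IMDM with 10% fetal bovine serum. RNA sequencing was carried out on 2 libraries of the control (labelled hygro, genotype control) and on 2 libraries of cells overexpressing Mtss1, which encodes an actin-binding and membrane-bending scaffold protein. The labels name no other treatment for either group. All libraries come from a single cell line, and separate cultures are not stated for the libraries within a group, so the p-values rest on how far these libraries differ within a group, and that spread may be purely technical.

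Heat shock proteins are molecular chaperones, which bind unfolded or partly folded proteins and help them reach or regain their native shape. In the cytosol, J-domain proteins such as Dnajb1 deliver clients to Hsp70 proteins such as Hspa8, Hsp110 proteins release the nucleotide that holds the client, and Hsp90 proteins complete the folding of kinases and receptors. Inside mitochondria, Hspa9 draws imported chains through the inner membrane and the barrel of Hspd1 with its lid Hspe1 folds them. Many of these genes are also induced by the transcription factor Hsf1 under proteotoxic stress, through heat shock elements made of alternating GAA and TTC units.

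The sequences below show matches to such elements near the starts of members. They are printed because they include a pair of genes, Hspd1 and Hspe1, that share 1 such stretch. Of this pair, Hspd1 passed the test below and Hspe1 did not. The windows reach from 250 bases before to 50 bases after an annotated start (RefSeq sequences, build GRCm38.p6), and 6 of the 10 members matched, with 9 windows. Windows of Hspa8, Hsp90aa1, Hsp90ab1 and Hspa9 were not used here. The units TTCNNGAA and GAANNTTC were searched; each reads the same on both strands, and overlapping matches were all counted. Capitals mark the matched bases, and each stretch is given 5′ to 3′ on the strand of its gene.
Hspe1, chr1:55088053-55088082, plus strand: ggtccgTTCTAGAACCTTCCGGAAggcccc
Hspd1, the same bases on the minus strand: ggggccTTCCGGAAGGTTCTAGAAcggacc
Hsph1, chr5:149636351-149636380, minus strand: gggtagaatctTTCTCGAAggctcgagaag
Hsph1, chr5:149636279-149636308, minus strand: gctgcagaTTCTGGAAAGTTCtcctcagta
Hspb1, chr5:135887782-135887829, plus strand: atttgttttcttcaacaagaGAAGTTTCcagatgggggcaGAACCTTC
Hspa1b, chr17:34959315-34959362, minus strand: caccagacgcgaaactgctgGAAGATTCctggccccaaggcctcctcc

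A match was found for 4 of the 6 members with a window and in 5 of their 9 windows. Of all 32851 windows in the RefSeq table, 15.1% hold one. The matching windows of Hspd1 and Hspe1 overlap, as do the 2 Hsph1 windows, so the 5 are not separate stretches. The longer forms TTCNNGAANNTTC or GAANNTTCNNGAA occur in 0.603% of all windows. The Hspe1 window and 1 of the 2 Hspd1 windows hold them, in the same run of alternating units, which lies in an annotated exon, and both Hsph1 windows hold one after the start, in the second Hsph1 stretch printed. No match was present in these windows of Dnajb1 and Hspa4. Hspa1b, an inducible Hsp70 gene outside the 10 members, is shown because it rose most among the Hsp70 genes examined. Its near-copy Hspa1a carries the identical 48 bases. Windows of Hspa4l, Hspa5 and Hsp90b1, which also rose, were searched too and held no match. For Dnaja4, a window held 2 matches and another held none. A match is a string of letters and does not show that a factor binds there.

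**Figure D1:**
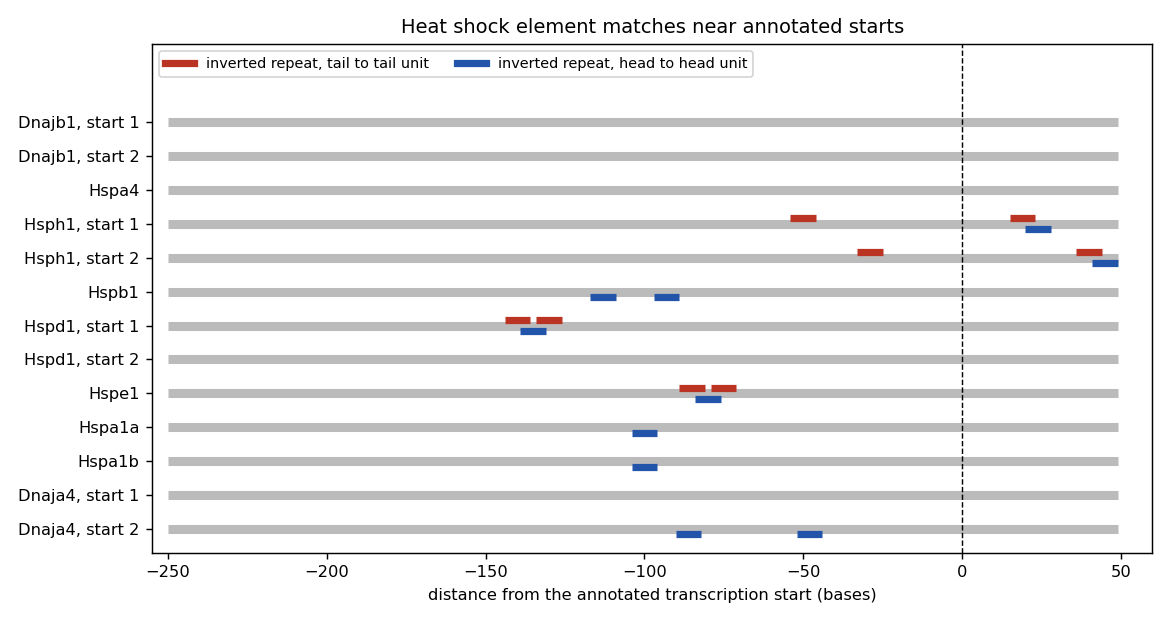
Positions of matches to the 2-unit heat shock element forms in windows from 250 bases before to 50 bases after annotated starts (x axis, bases from the start; 1 bar per start). Red marks TTCNNGAA and blue GAANNTTC; the 3 overlapping marks of Hspd1 and of Hspe1 are the same bases read from opposite strands.

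The deposited values are in CPM (read counts scaled to a common library size). Their sum in each library, divided by the CPM of 1 read recovered from the values, gave 15594209 to 22081639 reads assigned to genes. Mtss1 stood at 54.5 and 50.5 CPM in the control libraries and at 118 and 119 CPM in the overexpression libraries, a log2 fold change of 1.16 ± 0.05 (SE, limma adjusted p = 4.8e-15). The table does not separate the introduced copy from the native one. Of 12510 genes tested, 66.1% differed between the groups, 31.9% higher and 34.2% lower with overexpression, and the groups did not overlap for 81.6%. The epithelial markers Epcam, Krt5 and Krt19 were at 0 in all 4 libraries, while Krt8 and Krt18 and 8 of 8 mesenchymal markers were expressed. Of the immune markers, Cd3e and Itgam were at 0 in all 4 libraries and Ptprc was at most 0.098 CPM. The summed immune list lay at 21.2 to 22.3 CPM in control and 96.1 to 96.3 CPM with overexpression, mostly from the lysosomal gene Cd68. All 4 endothelial markers were under 1 CPM.

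Among the heat shock members, the mitochondrial pair Hspd1 and Hspa9 fell with Mtss1 overexpression, to 0.758 and 0.775 of their control means, and the Hsp110 gene Hsph1 rose to 1.18 times its own. Hspa4 fell slightly, and Hspa8, Dnajb1, Hsp90aa1, Hsp90ab1 and Hspe1 did not pass the test. Hspb1 was barely expressed and was not tested in the main fit. Thus 1 member rose and 3 fell of 9 that passed the expression filter (at least 1 CPM in at least 2 libraries), 44.4% against 66.1% over all genes tested. After scaling to equal column sums the split was 2 higher and 2 lower. The median absolute log2 fold change was 0.05 for these 9 members and 0.28 over all genes, and the median signed values were -0.02 and -0.01. In bulk RNA, fewer cells with a transcript and less transcript per cell cannot be told apart.

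**Figure D2:**
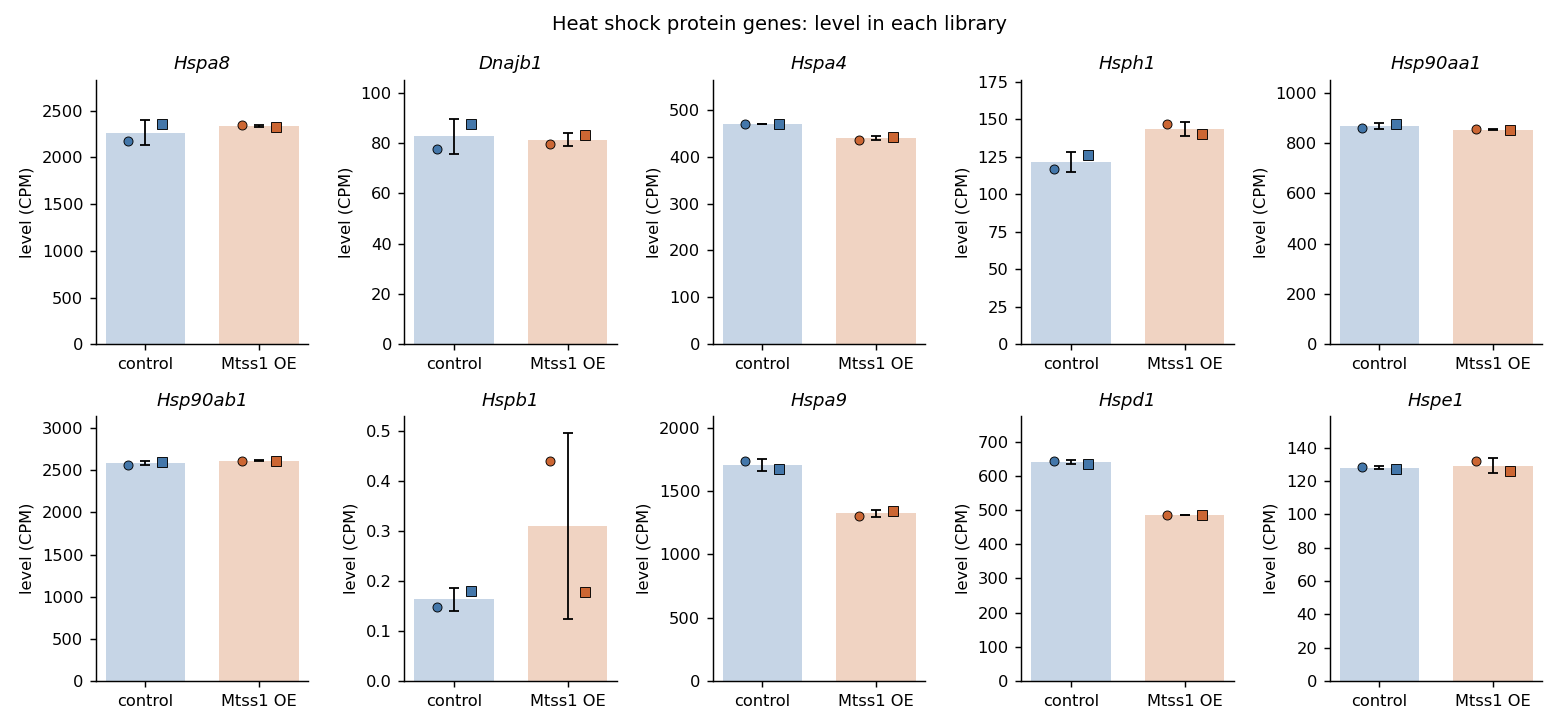
Level of each member in CPM (y axis, from 0, with its own scale per panel) in control (blue) and Mtss1 overexpression (orange, Mtss1 OE) libraries; circles are replicate 1, squares replicate 2, bars the mean and error bars the SD (n = 2). Hspa9 and Hspd1 are lower in both overexpression libraries, Hsph1 is higher, and the Hspb1 panel spans under 0.5 CPM.

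Per length of the principal transcript (GENCODE M21), the members covered a wide range of levels. Hsp90ab1 stood first in control with 1026 ± 8.75 CPM per kb (SD, n = 2), followed by Hspa8 with 946 ± 55.9 and Hspa9 with 560 ± 15.7 CPM per kb. Hsp90aa1 (265 ± 3.49) and Hspd1 (264 ± 2.73) did not differ beyond their spread in control, and with overexpression they read 260 ± 0.612 and 200.4 ± 0.447 CPM per kb. Below these came Hspe1 with 165 ± 1.19, Hspa4 with 102 ± 0.0077, Hsph1 with 32.0 ± 1.81 and Dnajb1 with 27.6 ± 2.33 CPM per kb. The order of the 10 members was the same with overexpression, where Hsph1 read 37.8 ± 1.24 and Dnajb1 27.2 ± 0.863 CPM per kb. When all exons of a gene were merged for its length, Hspd1 stood above Hsp90aa1 in control and Dnajb1 above Hsph1, so these neighbours have no settled order.

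Hspa8 (ENSMUSG00000015656, chromosome 9, 40800984 to 40810087, mm10) encodes the constitutive cytosolic Hsp70, which also drives clathrin uncoating and chaperone-mediated autophagy. Control 1 and 2 read 2170.1 and 2359 CPM, and overexpression 1 and 2 read 2347 and 2327 CPM. Both overexpression libraries lay between the control libraries. The difference was 0.05 ± 0.04 (SE) on the log2 scale, with a 95% interval of -0.03 to 0.12, and was not past the threshold (limma adjusted p = 0.29). Without control 2 it reached 0.11 (adjusted p = 0.0032), and after scaling to equal column sums 0.08 (adjusted p = 0.043).

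Dnajb1 (ENSMUSG00000005483, chromosome 8, 83608193 to 83612653) is the stress-induced J-domain partner that stimulates the ATPase of cytosolic Hsp70. Its levels were 77.8 and 87.7 CPM in control and 79.5 and 83.2 CPM with overexpression, so both overexpression libraries again fell between the controls. The log2 fold change was -0.02 ± 0.05 (SE, limma adjusted p = 0.75), with an interval of -0.13 to 0.09.

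The Hsp110 genes, whose proteins act as nucleotide exchange factors of Hsp70 and help to dissolve aggregates, moved in opposite directions. Hsph1 (ENSMUSG00000029657, chromosome 5, 149614287 to 149636376), the stress-inducible form, read 117 and 126 CPM in control and 147 and 140.3 CPM with overexpression. The groups did not overlap, and the log2 fold change was 0.24 ± 0.05 (SE, limma adjusted p = 7.6e-05). Hspa4 (ENSMUSG00000020361, chromosome 11, 53259814 to 53300457) read 469.97 and 470.02 CPM in control and 436 and 443 CPM with overexpression. The groups did not overlap here either, but the difference was small, with a log2 fold change of -0.10 ± 0.03 (SE, limma adjusted p = 0.013). It did not pass without overexpression 1 (adjusted p = 0.084) or after scaling to equal column sums (-0.06, adjusted p = 0.10). Hspa4l, another Hsp110 gene that is not a member, rose from 345 to 461 CPM (log2 fold change 0.42 ± 0.03, limma adjusted p = 3.2e-10).

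The cytosolic Hsp90 genes, which are among the most abundant members, did not pass the test. Hsp90ab1 (ENSMUSG00000023944, chromosome 17, 45567775 to 45573271), the constitutive form, read 2569 and 2600.4 CPM in control and 2615 and 2617 CPM with overexpression. Hsp90aa1 (ENSMUSG00000021270, chromosome 12, 110690605 to 110702728), the more inducible form, read 859.7 and 876 CPM in control and 854 and 851 CPM with overexpression. Their log2 fold changes were 0.02 ± 0.03 and -0.03 ± 0.03 (SE, limma adjusted p = 0.67 and 0.50), with 95% intervals of -0.05 to 0.09 and -0.09 to 0.04. Neither gene passed under the 12 alternative settings.

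Hspb1 (ENSMUSG00000004951, chromosome 5, 135887919 to 135889563) encodes the small heat shock protein Hsp25, which holds unfolded proteins and binds actin filaments. It was close to silent: 0.147 and 0.18 CPM in control and 0.441 and 0.179 CPM with overexpression, or 3 to 7 reads per library. Overexpression 1 was the highest, and the other libraries were alike. A level of 3 reads corresponds to 0.138 to 0.189 CPM. The gene was under the filter of 1 CPM in at least 2 libraries and was not tested in the main fit. In the fit without a filter it did not pass. A difference was not detectable at this depth.

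In the mitochondrial set, Hspa9 (ENSMUSG00000024359, chromosome 18, 34937414 to 34954357), the Hsp70 of the import motor, read 1740.5 and 1673 CPM in control and 1305 and 1342 CPM with overexpression. The chaperonin barrel gene Hspd1 (ENSMUSG00000025980, chromosome 1, 55077835 to 55088243), which encodes Hsp60, read 645 and 636 CPM in control and 486 and 485 CPM with overexpression. Both overexpression libraries lay below both controls for either gene. The log2 fold changes were -0.37 ± 0.03 for Hspa9 (SE, limma adjusted p = 2.8e-09) and -0.40 ± 0.03 for Hspd1 (SE, limma adjusted p = 3.7e-10), and both passed under all 12 alternatives, between -0.40 and -0.33 and between -0.41 and -0.36.

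Hspe1 (ENSMUSG00000073676, chromosome 1, 55088132 to 55091307), the Hsp10 lid of the same chaperonin, did not pass the test. It read 129 and 127 CPM in control and 132 and 126 CPM with overexpression, and the groups overlapped. Its log2 fold change was 0.01 ± 0.04 (SE, limma adjusted p = 0.79), and its 95% interval of -0.07 to 0.10 does not reach that of Hspd1, -0.47 to -0.33. The genes lie head to head, with annotated starts that overlap by 112 bases. The matched bases printed above lie between the RefSeq start of Hspe1 and the more downstream of the RefSeq starts of Hspd1. The sources used here do not give whether counting used strand.

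**Figure D3:**
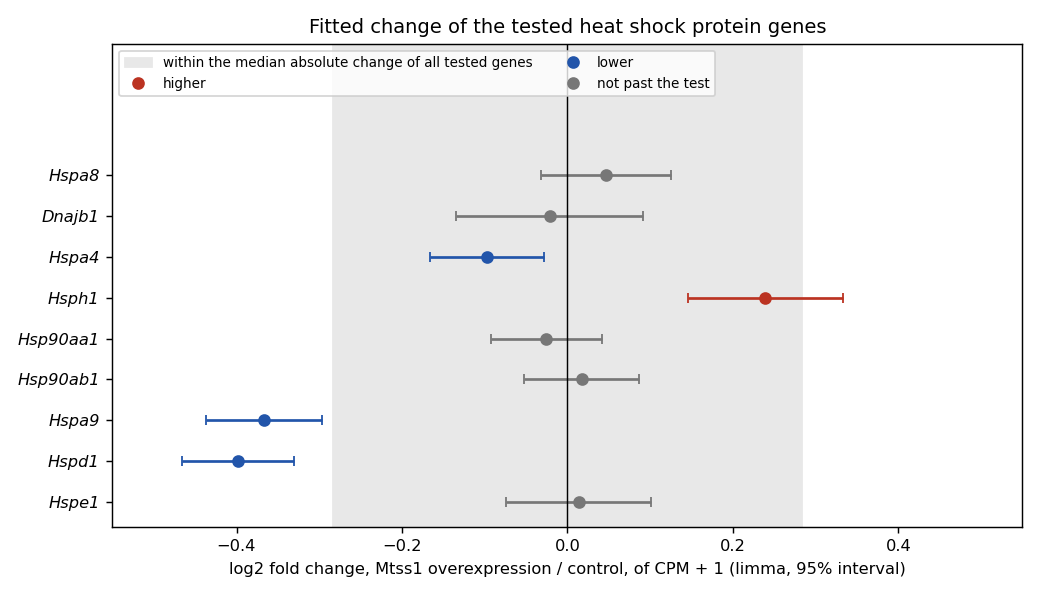
Log2 fold change of CPM + 1 (x axis) between Mtss1 overexpression and control for the 9 tested members (y axis), with 95% intervals from limma; red is higher, blue lower and grey not past the test. The grey band spans the median absolute change over all tested genes, 0.28 to either side of 0; Hspa9 and Hspd1 lie outside it on the lower side.

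Ratios between members that work together do not depend on how a library was scaled. The ratio of Hspe1 to Hspd1 was 0.199 and 0.2003 in control and 0.272 and 0.2603 with overexpression, a log2 change of 0.41. Hsph1 to Hspa8 went from 0.0538 and 0.0536 to 0.0626 and 0.0603, a log2 change of 0.19. In contrast, Hspa9 to Hspd1 was 2.70 and 2.63 in control and 2.68 and 2.77 with overexpression, and the groups overlapped.

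Hsp90aa1 to Hsp90ab1 read 0.335 and 0.337 in control and 0.327 and 0.325 with overexpression, and Dnajb1 to Hspa8 read 0.0359 and 0.0372 against 0.0339 and 0.0358. Hspa4 to Hspa8 was 0.217 and 0.199 in control and 0.186 and 0.190 with overexpression. With 2 libraries against 2 the exact two-sided permutation test cannot go below p = 0.333, which was reached by 5 of the 6 ratios; Hspa9 to Hspd1 gave an exact p of 0.667.

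**Figure D4:**
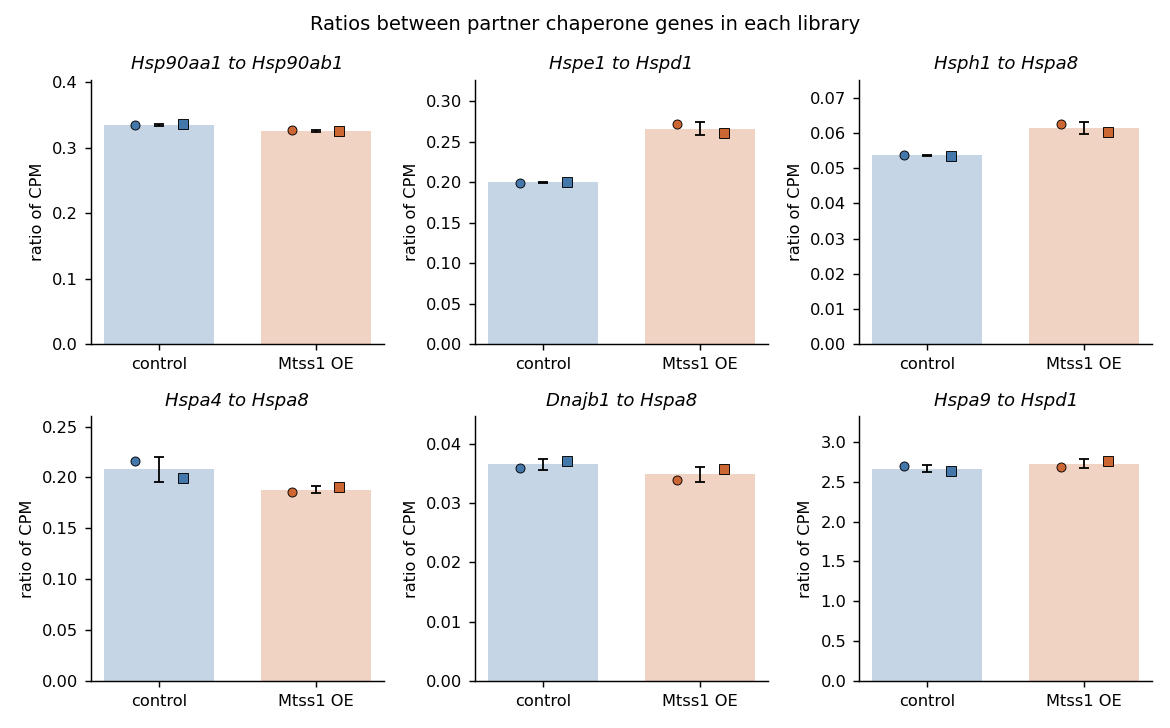
Ratio of CPM between 2 members in each library (y axis, from 0), for control (blue) and Mtss1 overexpression (orange, Mtss1 OE); circles are replicate 1, squares replicate 2, bars means and error bars the SD (n = 2). The Hspe1 to Hspd1 ratio stands higher in both overexpression libraries and the Hspa9 to Hspd1 ratio does not separate the groups.

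Summed over compartments, the 3 mitochondrial members went from 2514 and 2436 CPM in control to 1924 and 1953 CPM with overexpression, a change of -21.7%. The 7 cytosolic members summed to 6264 and 6519.9 CPM in control and 6479 and 6461 CPM with overexpression, a change of 1.22%. Messages of the mitochondrial genome also differed between the groups. Of 13 such genes 12 fell and 1, mt-Co1, did not pass, 92.3% called against 66.1% over all genes, where 34.2% fell. Their sum was 16118 and 15839 CPM in control and 10504 and 11457 CPM with overexpression. Any link between these messages and the fall of Hspa9 and Hspd1 was not tested.

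Other nuclear genes for chaperones and proteases of mitochondria changed in both directions. Of 20 mitochondrial chaperones and proteases, 8 rose, 5 fell and 7 did not pass, 65.0% called against 66.1% over all genes, with a median log2 fold change of 0.07. Lonp1, the ATP-dependent matrix protease, fell from 367 ± 16.2 to 234 ± 7.77 CPM (SD, n = 2; log2 fold change -0.65 ± 0.04 SE). Dnlz, a zinc-binding escort of Hspa9, fell from 17.5 ± 0.132 to 11.9 ± 1.72 CPM (-0.53 ± 0.11). Clpb, a disaggregase of mitochondria, rose from 68.7 ± 1.84 to 101 ± 4.62 CPM (0.55 ± 0.05). For these 3 the highest limma adjusted p was 2.2e-04.

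Around the cytosolic members, 75 further chaperone genes were listed, of which 69 passed the filter. Among these, 21 rose, 27 fell and 21 did not pass, 69.6% called against 66.1% over all genes, with a median log2 fold change of -0.07 and a median absolute value of 0.21. The rises and medians include Dnaja4, Hspb2 and Hsf4, which passed the filter only through the overexpression libraries, where they were high. These genes are therefore given by their levels, with no test. When every library had to reach 1 CPM, 18 rose and 27 fell of 66. Falls also outnumbered rises over all genes under this stricter filter. Under the wider filter of 1 CPM in at least 2 libraries, 31.9% of all genes tested rose and 34.2% fell.

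The inducible Hsp70 gene Hspa1b showed the largest change among the Hsp70 genes and exchange factors, of which 6 rose, 5 fell and 2 did not pass of 13 tested, 84.6% called against 66.1% over all genes. It read 34.0 and 39.5 CPM in control and 207 and 174 CPM with overexpression, a mean change from 36.7 to 191 CPM and a log2 fold change of 2.34 ± 0.07 (SE, limma adjusted p = 3.3e-18). Both overexpression libraries stood far above the controls. Its neighbour and near-copy Hspa1a was under the filter, with 0.285 CPM in control and 0.454 CPM with overexpression on average. Of the 150-base windows in the Hspa1b transcript, 40.5% also occur in Hspa1a, so the division of reads between the 2 genes is uncertain; their sum was 34.2 and 39.8 CPM in control and 207 and 175 CPM with overexpression. Hspbp1, an exchange factor of Hsp70, fell by 0.81 ± 0.08 (SE) on the log2 scale, from 38.7 to 21.6 CPM, and Hspa2, the testis-enriched Hsp70, rose from 2.99 to 5.37 CPM (0.67 ± 0.16).

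Small heat shock proteins other than Hspb1 were also unequal. Of 8 listed, 3 reached 1 CPM in every library, of which 1 rose and 2 did not pass the test. Over all genes reaching 1 CPM in at least 2 libraries, a wider filter, 31.9% rose. Cryab, the alpha B-crystallin gene, read 13.1 and 17.1 CPM in control and 53.9 and 51.7 CPM with overexpression (log2 fold change 1.75 ± 0.09, limma adjusted p = 1.7e-13). Its neighbour Hspb2 read 0.441 and 0.736 CPM in control and 8.06 and 7.62 CPM with overexpression. The 2 genes face opposite ways on chromosome 9 and overlap by 1030 bases in the annotation, so reads could have been divided between them.

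J-domain proteins, which choose clients for Hsp70, gave 3 rises and 6 falls among the 13 that reached 1 CPM in every library. Under the wider filter of 1 CPM in at least 2 libraries, 31.9% of all genes tested rose and 34.2% fell. Dnaja4 read 0.214 and 0.296 CPM in control and 8.28 and 9.52 CPM with overexpression. Dnajc7, which binds both Hsp70 and Hsp90, fell from 193 ± 3.13 to 110.2 ± 2.28 CPM (SD, n = 2; -0.81 ± 0.04) and the endosomal protein gene Dnajc13 from 177 to 139 CPM (-0.35 ± 0.04).

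Hsp90 co-chaperones guide clients to Hsp90 or set the pace of its ATPase cycle. Among 20 tested co-chaperone genes 10 were lower, 2 were higher and 8 were not past the threshold, 60% called against 66.1% over all genes, with a median log2 fold change of -0.15 against -0.01 over all genes. Cdc37, which brings kinases to Hsp90, fell from 378 ± 0.785 to 288 ± 7.40 CPM (SD, n = 2; log2 fold change -0.39 ± 0.03 SE). Chordc1 fell from 55.9 to 41.6 CPM (-0.42 ± 0.06) and Pih1d1, of the R2TP complex, from 17.7 to 13.3 CPM (-0.39 ± 0.10). Their highest limma adjusted p was 0.0015.

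The cytosolic chaperonin TRiC and its helper prefoldin, which fold actin and tubulin, changed by small amounts in both directions, with 4 rises, 5 falls and 5 not past the test among 14, 64.3% called. After scaling to equal column sums the split was 6 rises and 3 falls. The TRiC subunit gene Cct3 fell by 0.37 on the log2 scale, while the prefoldin genes Vbp1 and Pfdn1 rose by 0.39 and 0.31. Their highest limma adjusted p was 3.8e-06.

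Of the heat shock transcription factor genes, Hsf1, the main activator of heat shock genes, read 81.3 and 77.9 CPM in control and 94.2 and 84.3 CPM with overexpression. It rose by 0.16 ± 0.05 (SE) on the log2 scale (limma adjusted p = 0.011). The call was lost in 3 of 12 alternatives, the fits for the log2 fold change of Hsf1 without control 2 (adjusted p = 0.066), without overexpression 1 (adjusted p = 0.229) and without a filter (adjusted p = 0.0867). Hsf2 fell from 51.7 to 42.3 CPM (-0.28 ± 0.06), and Hsbp1, a negative regulator of Hsf1, rose from 79.1 to 105 CPM (0.41 ± 0.05). Hsf4 read 0.098 and 0.092 CPM in control, 2 reads in each library, and 1.64 and 1.84 CPM with overexpression. RNA levels do not show how active a factor is.

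Of the 4 endoplasmic reticulum counterparts 3 rose and 1 did not pass, 75% called against 66.1% over all genes, where 31.9% rose. Hspa5, the Hsp70 of that compartment, rose from 986 ± 9.48 to 1738 ± 79.5 CPM (SD, n = 2; log2 fold change 0.82 ± 0.04). Hsp90b1, its Hsp90, rose from 1017 ± 5.42 to 1266 ± 24.1 CPM (0.32 ± 0.03), and the Hsp110-like gene Hyou1 from 211 to 342 CPM (0.69 ± 0.04). Their highest limma adjusted p was 1.7e-08. The difference between compartments was not tested as such.

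**Figure D5:**
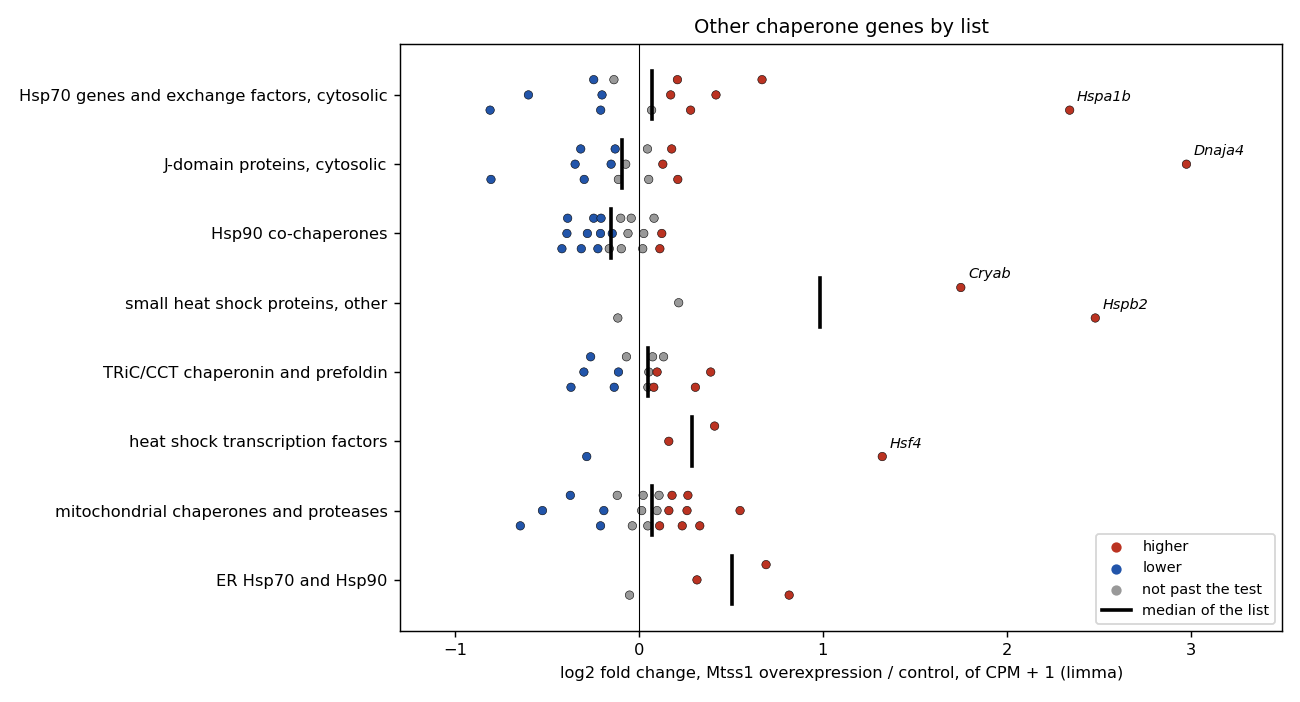
Log2 fold change of CPM + 1 (x axis) for each tested gene of 8 chaperone lists (y axis), with 1 point per gene in red (higher), blue (lower) or grey (not past the test) and the list median as a black bar; vertical offsets within a list carry no value. Hspa1b, Dnaja4, Cryab, Hspb2 and Hsf4 lie beyond 1 and most other genes within 0.5 of 0; Dnaja4, Hspb2 and Hsf4 entered only through their overexpression libraries.

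Processed pseudogenes are numerous for several members and could take or lend reads. The table describes 22 pseudogene rows for Hspd1, 13 for Hspa8, 8 each for Hsp90aa1 and Hsp90ab1, 6 for Hspe1 and 1 for Hspa9. Summed, those of Hspa8 reached 26.1 to 38.6 CPM and those of Hspd1 3.52 to 4.13 CPM, while those of Hspe1 and Hspa9 were at 0. Adding them left the log2 fold change of Hspd1 at -0.40 and gave 0.04 in place of 0.05 for Hspa8.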

How the data were processed

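The deposited table holds gene values in CPM for 4 libraries; the unit was assigned from the values, whose columns sum to 982877 to 1016225. FastQC 0.11.2, STAR, RSEM and mm10 are named in the submitters' processing notes, without roles or settings; how the values were scaled is not stated there. Dividing by the CPM of 1 read gave whole numbers within 0.005 read for 79.6% to 80.5% of nonzero values, so counts were not used for the main test. Values on the log2(CPM + 1) scale were fitted by limma (version 3.58.1, R version 4.3.3, mean-dependent prior). Genes reaching 1 CPM in 2 or more libraries entered, with Benjamini-Hochberg adjustment over all 12510 genes and a threshold of 0.05. The pseudocount understates changes of low genes. Libraries of a group differed by 2.03 (control) and 1.77 (overexpression) times the Poisson chi-square. Each library was counted as 1 replicate, although this spread does not show that the libraries came from separate cultures. Steps were tested on simulated data.

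Members and lists were chosen with earlier results of these data known. Named network genes are the 3 largest changes past the threshold per list, plus Hsf1, Hspa1a, Hspa1b, Hspa5 and Hsp90b1; Hspa4l was named after its value was seen. Coordinates come from GENCODE M21 (mm10). Alternatives were pseudocounts of 0.1 and 5, 2 other filters, 2 other scalings, limma-voom on recovered expected counts, a replicate block, a threshold of 0.01 and leaving out each library.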

Additional observations from a re-analysis of the deposited data

How the results depend on the processing

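The members gave 4 calls, and between 3 and 5 when each library was left out in turn; the 3 came without overexpression 1 and the 5 without control 2. With an adjusted p under 0.01, 3 members were called, beside 7046 of the 12510 genes tested. Over the 12 refitted alternatives and 9 members, 104 of 108 comparisons stayed on their side of the threshold; the exceptions were those given for Hspa8 and Hspa4. The sign turned in 6 of the 108, for Hspa8, Dnajb1, Hsp90aa1 and Hspe1, none of them past the threshold. Of 1107 comparisons for the other chaperone genes 54 lost the threshold and 11 gained it, and no call was reversed. The cytosolic network gave 48 calls and 38 to 41 with a library left out, and the mitochondrial list 13 and 10 to 13; the calls over all genes, 8273, became 7173 to 7288. Where 1 library of a group remained, it was assumed to vary like the other group. With the replicate number as a replicate block, 4 members and 8377 genes were called. Deviations of same-numbered libraries correlated at -0.024 across genes. That value shows no strong shared deviation but cannot tell whether same-numbered libraries were handled together. Depth limits Hspb1, which had 3 to 7 reads.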
